A study of Mus musculus with 6 samples.

Results

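The mouse mitochondrial genome carries 37 genes, and all of them were among the 54547 genes counted in small RNA libraries from regulatory T (Treg) cells. They were chosen by chromosome alone, as every gene that the annotation (GENCODE vM21, on GRCm38) places on chromosome M, and comprise 2 rRNA, 22 tRNA and 13 protein-coding genes. The question was whether the counts on these genes, their classes, their strands and the single tRNA genes differed between 3 WT libraries and 3 miR-181a/b-1-/- libraries. All mice had the strain background C5BL6/N, as spelled in the labels, and an age of 7 weeks, and the knockouts lacked the miR-181a/b-1 cluster on both alleles (genotype label miR-181a1/b1 -/-). According to the methods, Treg cells of each sample were sorted from 3 pooled thymi, so that each library averages several animals. The tissue label gives the thymus, as the methods do, whereas the results text of the study speaks of peripheral Treg cells, and thymus is used here.

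Mitochondrial DNA is copied into long transcripts from both strands, and tRNA genes punctuate most of the spaces between the rRNA and protein-coding genes. Enzymes cut the tRNAs out at both ends, which releases the neighbouring RNAs, and enzymes then add CCA to the tRNA end and modify its bases. The proteins encoded are subunits of respiratory complexes I, III and IV and of ATP synthase, and the tRNAs and rRNAs serve only their translation. Most genes lie on the forward strand, and mt-Nd6 and 8 of the tRNA genes lie on the reverse strand.

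Treg identity was checked first. All 12 Treg markers on the list had counts, summing to 1405 to 1478 CPM (counts per 1000000 gene counts) in WT libraries and to 1332 to 1604 in miR-181a/b-1-/- libraries. Of 9 markers of double-positive thymocytes, the stage before CD4 or CD8 commitment, 7 had counts and Rag2 and Ptcra were at 0. Their sum was 40.5 to 53.4 CPM in WT and 61.5 to 95.1 in miR-181a/b-1-/- libraries, which did not overlap (80 counts in all 6 libraries, exact two-sided permutation test, p = 0.1, the smallest p that 3 against 3 allows), and its part in the results below was not tested. Of the 80 counts, 36 were on Themis, 16 on Ets2 and 4 on Dntt, so that the sum rested mostly on Themis and Ets2. All 10 T cell markers had counts, and all 7 erythroid markers in the files were at 0. Of 7 B cell markers, 5 had counts (69 in all libraries, 49 of them on Ighm), with means of 52.5 CPM in WT and 52.1 in miR-181a/b-1-/- libraries, and Cd79a and Ms4a1 were at 0. Of 8 myeloid markers, 2 had counts, 4 in all and all in miR-181a/b-1-/- replicate 2. Libraries held 168293 to 307840 counts on genes, and records given to no gene made up 75.7% to 80.3% of all records.

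Within the genome, the tRNA genes held very unequal counts. The sequences of the 3 with the most counts are shown first, all 3 ranking in that order in each of the 6 libraries, with mt-Tt, the opposite-strand neighbour of mt-Tp, and with mt-Tn, mt-Ty and mt-Th, which had no count. They are printed 5′ to 3′ as DNA from the GENCODE vM21 transcripts, with the anticodon in capitals.
mt-Tp (proline, chrM:15356-15422, reverse): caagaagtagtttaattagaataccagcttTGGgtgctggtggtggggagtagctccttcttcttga
mt-Tm (methionine, chrM:3845-3913, forward): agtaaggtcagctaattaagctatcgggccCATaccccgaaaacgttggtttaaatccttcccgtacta
mt-Tq (glutamine, chrM:3772-3842, reverse): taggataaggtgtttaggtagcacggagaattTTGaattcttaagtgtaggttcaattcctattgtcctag
mt-Tt (threonine, chrM:15289-15355, forward): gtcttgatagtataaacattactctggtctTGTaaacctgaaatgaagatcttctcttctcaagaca
mt-Tn (asparagine, chrM:5089-5159, reverse): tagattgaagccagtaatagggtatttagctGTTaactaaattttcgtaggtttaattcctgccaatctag
mt-Ty (tyrosine, chrM:5260-5326, reverse): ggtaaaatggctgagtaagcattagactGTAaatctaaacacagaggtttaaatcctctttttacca
mt-Th (histidine, chrM:11546-11612, forward): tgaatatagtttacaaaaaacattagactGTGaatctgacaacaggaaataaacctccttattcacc
The tRNA genes are 59 to 75 bases long. mt-Tm, mt-Tp and mt-Tl1 were the 3 most GC-rich of the 22, with 44.9%, 44.8% and 44.0% G and C, followed by mt-Tw with 40.3%, which had 1 count in all. Across the 22 genes, which share the same libraries, GC content and level had a Spearman rho of 0.42, given as a description only.

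Counts were present on 25 of the 37 genes and 12 had none in any library. To be tested, a gene needed 10 or more counts in 3 or more of the 6 libraries, and 18 genes met this, comprising both rRNA genes, 9 tRNA and 7 protein-coding genes. The other 7 genes had 1 to 13 counts in the libraries that counted them. They were mt-Nd6, with 3 to 7 counts in every library, and the tRNA genes mt-Ts2, mt-Tl2, mt-Tf, mt-Tr, mt-Tw and mt-Te. Counts in all libraries summed to 233029, of which the rRNA genes held 218435, the protein-coding genes 7623 and the tRNA genes 6971.

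**Figure D1:**
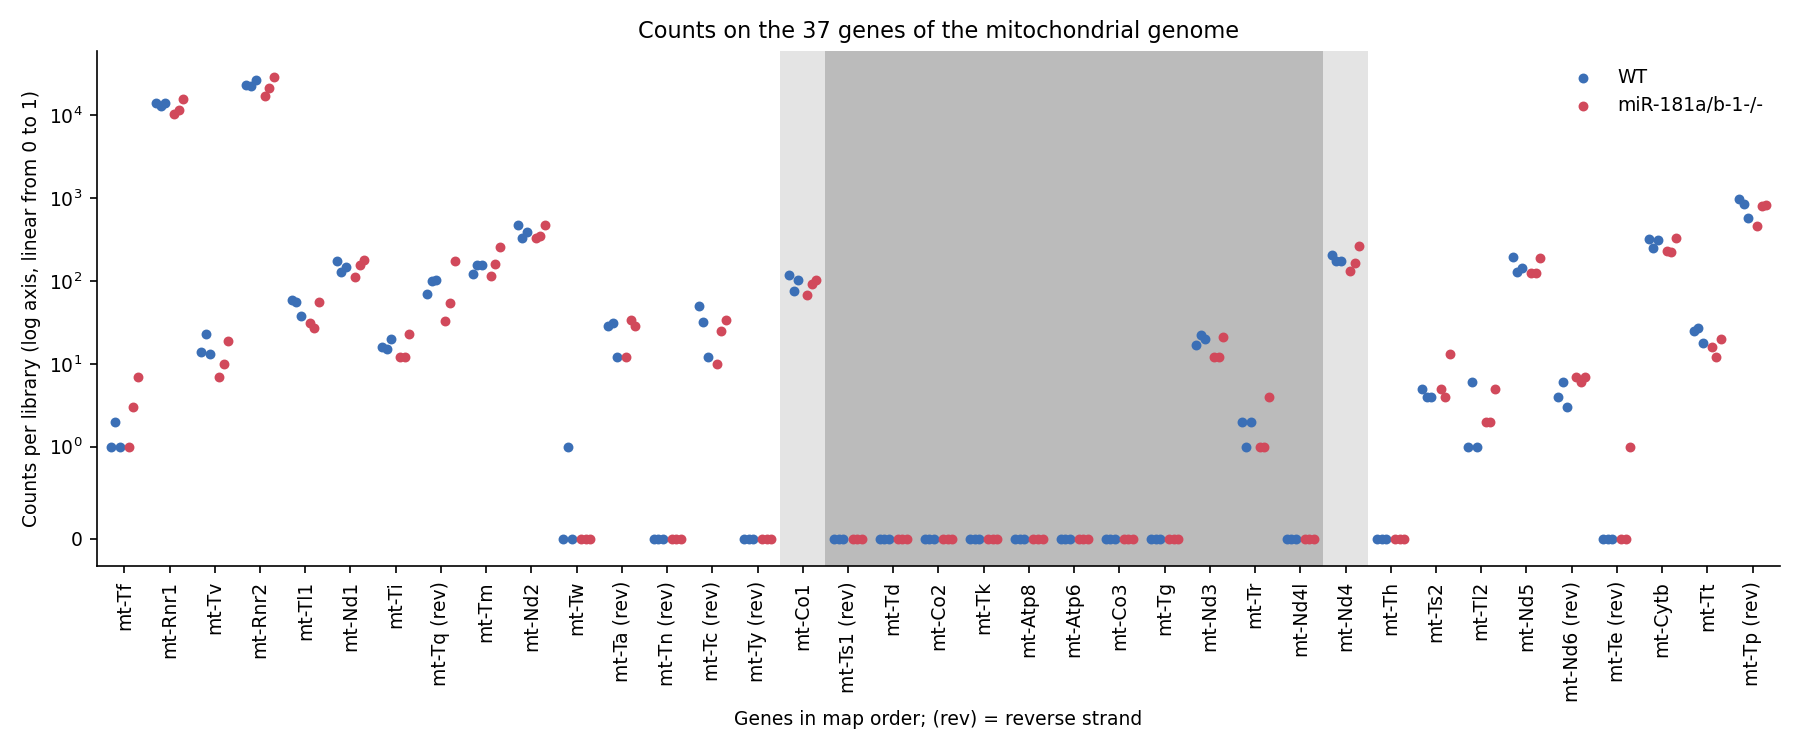
Counts per library (log axis, linear from 0 to 1) on each of the 37 genes in map order, 1 point per library, WT in blue and miR-181a/b-1-/- in red. Dark shading marks genes that lie wholly, and light shading those that lie partly, in the stretch copied on chromosome 1. Of the 12 genes at 0, 9 are in the dark stretch, and the genotypes overlap at every gene that was tested.

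Position separated most of the genes at 0 from the rest. Of the 12, 9 lie together between mt-Co1 and mt-Nd4, and these are mt-Ts1, mt-Td, mt-Co2, mt-Tk, mt-Atp8, mt-Atp6, mt-Co3, mt-Tg and mt-Nd4l. They include subunits of cytochrome c oxidase (mt-Co2, mt-Co3) and both mitochondrial subunits of ATP synthase (mt-Atp6, mt-Atp8). The annotation has 7 unprocessed pseudogenes on chromosome 1, between chr1:24611535-24616197 on the reverse strand, which match chrM:6381-11042 (4662 bases) in the same order. Over the 4149 bases compared, the pseudogenes and the mitochondrial genes differed at 7 (99.8% identity). Gm28661 (copy of mt-Co2), Gm28437 (mt-Co3), Gm10925 (mt-Atp6), Gm10222 (mt-Nd4l) and Gm28439 (mt-Nd4) had no difference over 681, 783, 678, 294 and 876 bases. The distances between the pseudogenes were those between the mitochondrial genes, except that the stretch with mt-Tr was 74 bases on chromosome 1 and 73 on chromosome M. The letters of the tRNA copies on chromosome 1 were not read, since no genome sequence was used here.

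The 2 places with differences are shown as the first 40 bases of the copied part, with differing bases in capitals and each sequence on its gene's own strand.
mt-Co1 (chrM:6381-6420): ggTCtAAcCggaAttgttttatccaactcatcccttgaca
Gm29216 (chr1:24616158-24616197): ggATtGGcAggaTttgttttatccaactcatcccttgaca
mt-Nd3 (chrM:9459-9498): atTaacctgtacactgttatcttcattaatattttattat
Gm28438 (chr1:24613080-24613119): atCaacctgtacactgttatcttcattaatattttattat
In Gm29216, 6 bases differed close to the edge of the copy and the following 479 were identical. A read within such an identical stretch has the same letters at both places, and records without a unique alignment, 41.7% to 46.2% of each library, were counted for no gene. Records ambiguous between genes, 20.4% to 24.0% of each library, were counted for no gene either. A count of 0 on mt-Co2, mt-Co3, mt-Atp6 and mt-Nd4l was therefore not read as absence of the RNA. For mt-Ts1, mt-Td, mt-Tk and mt-Tg the copies were not read, and for mt-Atp8 only in part. Their 0 was not read as absence either, and its cause was not tested.

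Sharing was measured as the percentage of all 30-base windows of a gene that also occur in a nuclear transcript. It was 100% for mt-Co2, 99.9% for mt-Co3, 99.5% for mt-Atp6, 98.9% for mt-Nd4l and 98.1% for mt-Nd3, and 64.8% and 62.8% for mt-Co1 and mt-Nd4, which lie only partly in the copied stretch. Chromosome 1 was not the only place with copies, as 706 windows of mt-Co1 occurred in the pseudogene Gm13340, against 450 in Gm29216, and 315 of mt-Co2 in Gm13341, against 652 in Gm28661. The other protein-coding genes were between 0% (mt-Nd1) and 17.5% (mt-Nd5). mt-Atp8 was at 8.00%, and its 14 shared windows all lay in the end that Gm10925 covers, while no transcript is annotated at the place on chromosome 1 that corresponds to the rest of it. All 22 tRNA genes were at 0% apart from mt-Ty, with 13.2%, and no transcript is annotated at the places on chromosome 1 that correspond to the 5 tRNA genes of the stretch.

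mt-Nd3 and mt-Tr were the only genes wholly in this stretch with counts. mt-Nd3, a subunit of complex I, had 17, 22 and 20 counts in WT and 12, 12 and 21 in miR-181a/b-1-/- libraries, and its copy Gm28438 had 8 in all. mt-Tr, the arginine tRNA, had 11 counts in all libraries. Gm10222 had 2 counts and the other 5 pseudogenes none. The remaining genes at 0, mt-Tn, mt-Ty and mt-Th, lie outside the stretch, and a count of 0 allows up to 3 counts, or 0.000975% to 0.00178% of the gene counts of a library. That bound covers counting error only. Windows were compared with annotated transcripts alone, so whether unannotated nuclear copies made reads of these genes non-unique was not tested.

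**Figure D2:**
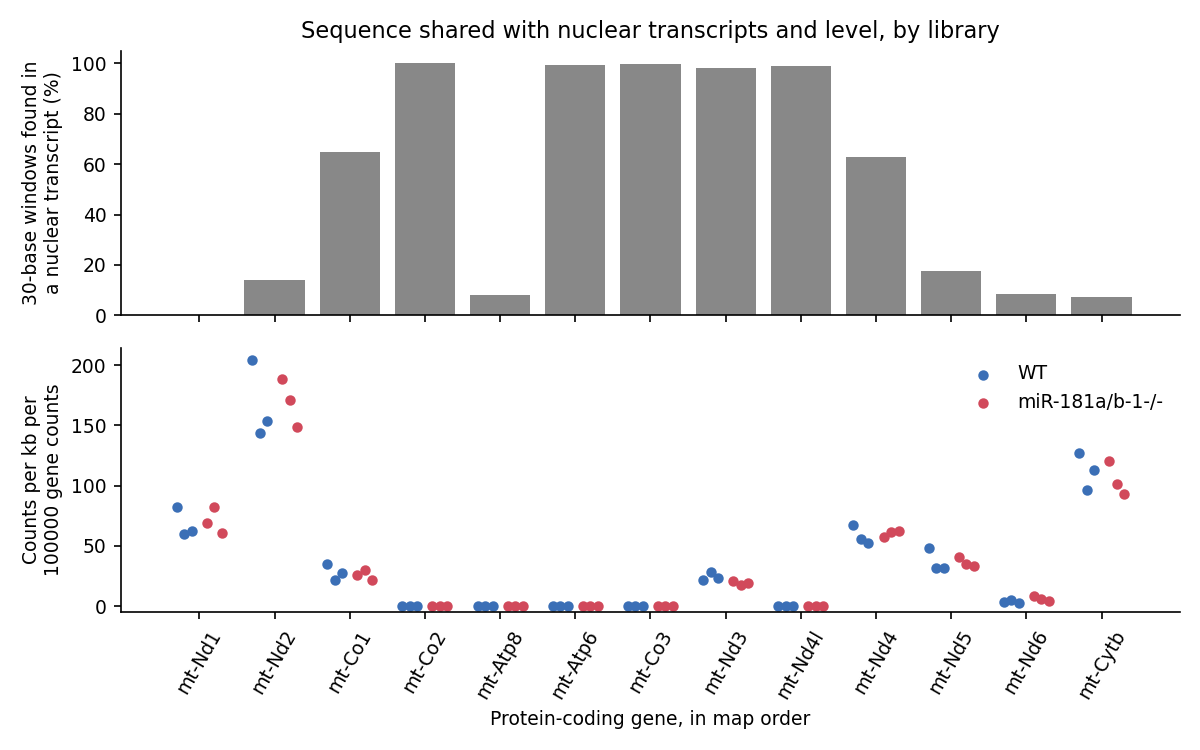
Upper bars give, for the 13 protein-coding genes in map order, the percentage of 30-base windows also found in a nuclear transcript, and lower points the level per library in counts per kb per 100000 gene counts (WT blue, miR-181a/b-1-/- red). mt-Co2, mt-Atp6, mt-Co3 and mt-Nd4l have 98.9% to 100% shared windows and no counts, whereas mt-Nd2 and mt-Cytb share 14.1% and 7.35% and have the highest levels. mt-Nd3, with 98.1% shared windows and 104 counts in all libraries, and mt-Atp8, with 8.00% and none, go the other way. So does mt-Nd6, with 8.37% and the lowest level above 0 (median 4.76). mt-Nd1, with 0% shared, lies below mt-Nd2 and mt-Cytb at a median of 65.8.

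The 2 rRNA genes held most mitochondrial counts. They encode the 12S (mt-Rnr1) and 16S (mt-Rnr2) RNAs of the mitochondrial ribosome. As the authors removed rRNA reads before alignment, against a set whose content is not given in the sources used here, these counts are those that remained. mt-Rnr1 had 14107, 12804 and 14184 counts in WT and 10330, 11669 and 15660 in miR-181a/b-1-/- libraries. mt-Rnr2 had 22868, 22598 and 26746 counts in WT and 17004, 21449 and 29016 in miR-181a/b-1-/- libraries. The count of the deepest library, miR-181a/b-1-/- replicate 3, was the highest for both genes and that of the shallowest, replicate 1, the lowest, and the genotypes overlapped. After TMM scaling, which sets the libraries to a common level and here takes as total only the counts on the 1391 genes tested, mt-Rnr1 was at 66405 ± 3364 CPM in WT and 64106 ± 1747 in miR-181a/b-1-/- libraries (SD, n = 3 each). For mt-Rnr2 the values were 116404 ± 3603 and 114162 ± 10107 (SD, n = 3 each). The log2 fold change, miR-181a/b-1-/- over WT, was -0.05 for mt-Rnr1 (standard error 0.17, 95% interval -0.41 to 0.31) and -0.03 for mt-Rnr2 (standard error 0.17, 95% interval -0.37 to 0.32). The adjusted p was 0.980 and 0.990 (edgeR's quasi-likelihood test over all 1391 genes tested, Benjamini-Hochberg adjustment). Per kb, mt-Rnr2 over mt-Rnr1 was 1.06 ± 0.0800 in WT and 1.07 ± 0.0696 in miR-181a/b-1-/- libraries (SD, n = 3, exact two-sided permutation test, p = 0.9).

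None of the 18 genes tested passed the test in either direction. By the same edgeR test, 0 had an adjusted p under 0.05, against 0% of all 1391 genes tested. At an unadjusted p under 0.05 there were 0 of the 18, against 5.18% of all genes (72). In 0 of the 18 did the libraries of the genotypes not overlap, against 8.05% of all genes (112). Log2 fold changes were positive for 5 and negative for 13 genes, against 686 and 705 over all genes, and ranged from -0.47 (mt-Tt) to 0.34 (mt-Tm). Over the 18 genes the median was -0.07, against -0.004 over all genes, and it was 0.00176 without WT replicate 1. The median was -0.04 for the rRNA genes, -0.14 for the 9 tRNA genes and -0.03 for the 7 protein-coding genes. By strand, it was -0.39 for the 5 forward tRNA genes and -0.12 for the 4 reverse ones.

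**Figure D3:**
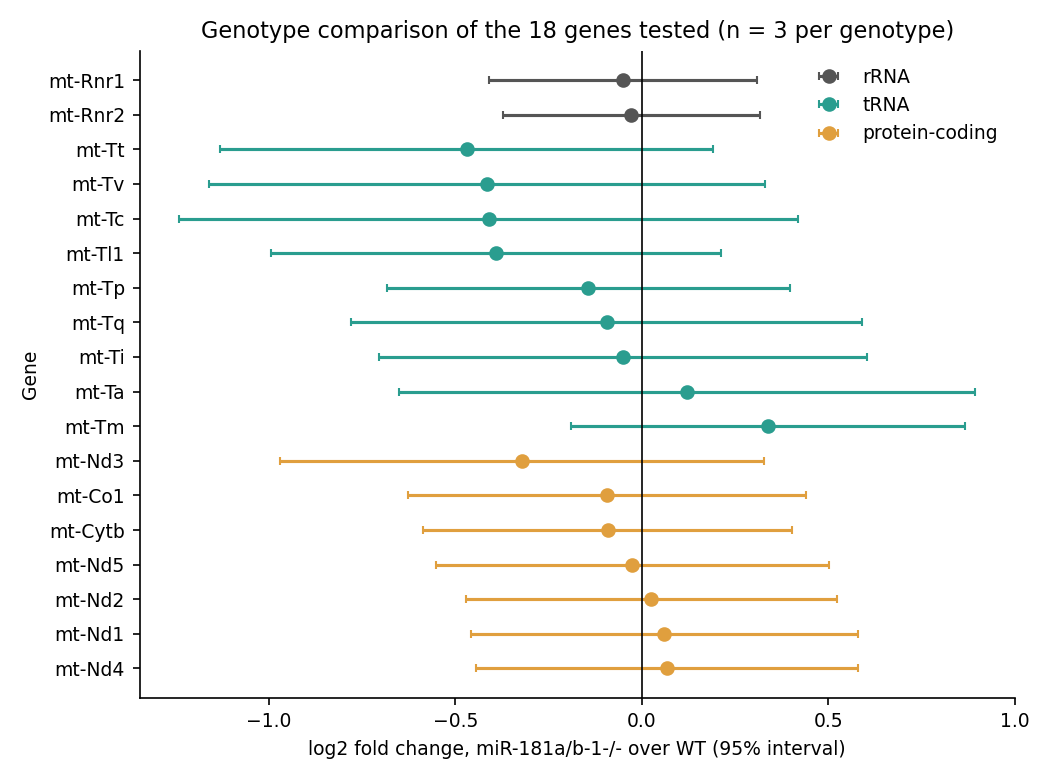
Log2 fold change, miR-181a/b-1-/- over WT, of the 18 genes tested, with points for the edgeR estimate and whiskers for its 95% interval, coloured by class. Every interval crosses 0. Those of the rRNA genes are the narrowest, from -0.41 to 0.32, and that of mt-Tc is the widest, from -1.24 to 0.42.

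mt-Tp, the proline tRNA, held more counts than all other mitochondrial tRNA genes together. It had 984, 859 and 575 counts in WT and 467, 800 and 830 in miR-181a/b-1-/- libraries. After TMM scaling these were 4899, 4365 and 2591 CPM in WT and 2816, 4510 and 3405 in miR-181a/b-1-/- libraries. The lowest value was in a WT library, WT replicate 3, and the genotypes overlapped (log2 fold change -0.14, standard error 0.26, 95% interval -0.68 to 0.40, edgeR adjusted p = 0.980 by Benjamini-Hochberg). Its share of the tRNA counts was 71.5%, 65.5% and 60.1% in WT and 65.7%, 69.9% and 56.4% in miR-181a/b-1-/- libraries. The 95% Wilson intervals of WT replicate 1 (69.0% to 73.8%) and miR-181a/b-1-/- replicate 3 (53.9% to 58.9%) lay apart, and so did values within a genotype, so that libraries differed by more than counting error. mt-Tt abuts mt-Tp base to base on the other strand, and mt-Tp exceeded it 29.2 to 66.7 times per kb (median 35.7 over the 6 libraries).

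**Figure D4:**
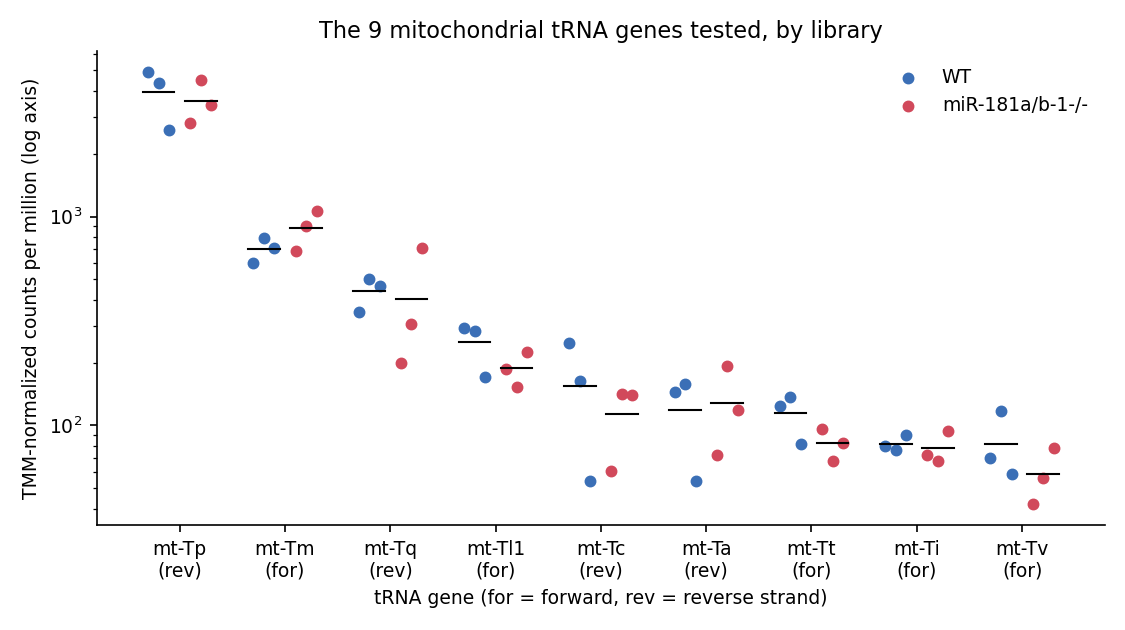
TMM-normalized CPM (log axis) of the 9 tRNA genes tested, 1 point per library and a bar at the mean of each genotype (n = 3), with the strand under each name. mt-Tp lies between 2591 and 4899, above mt-Tm at 602 to 1062 in every library, and WT and miR-181a/b-1-/- points overlap for each gene.

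mt-Tm, the methionine tRNA, which serves both initiation and elongation in mitochondria, was second. Its counts were 121, 156 and 157 in WT and 114, 160 and 259 in miR-181a/b-1-/- libraries. After TMM scaling they were 602, 793 and 707 CPM against 687, 902 and 1062, with the 2 highest values in miR-181a/b-1-/- libraries and its lowest between the WT values. It had the highest log2 fold change of the 18 genes, 0.34 (standard error 0.26, 95% interval -0.19 to 0.87, edgeR adjusted p = 0.980 by Benjamini-Hochberg). Without miR-181a/b-1-/- replicate 3 this was 0.19, and without WT replicate 1 it was 0.22, below mt-Ta at 0.27. The glutamine tRNA mt-Tq overlaps the end of mt-Ti on the other strand. mt-Tq had 70, 99 and 103 counts in WT and 33, 54 and 172 in miR-181a/b-1-/- libraries, or 439 ± 80.4 and 403 ± 267 CPM (SD, n = 3 each). The miR-181a/b-1-/- libraries held both its lowest and its highest values, and without single libraries its log2 fold change of -0.09 ranged from -0.79 to 0.21.

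Further tRNA genes had far fewer counts than mt-Tp in every library. mt-Tl1, a leucine tRNA encoded directly behind mt-Rnr2, had 59, 56 and 38 counts in WT and 31, 27 and 55 in miR-181a/b-1-/- libraries. The change between genotypes was -0.39 on the log2 scale (95% interval -0.99 to 0.21), and -0.61 without WT replicate 3. The cysteine tRNA mt-Tc, with 50, 32 and 12 counts in WT and 10, 25 and 34 in miR-181a/b-1-/- libraries, had low values in 1 library of each genotype. mt-Ta, the alanine tRNA, had 29, 31 and 12 counts in WT and 12, 34 and 29 in miR-181a/b-1-/- libraries. Its low values lay in the same libraries as those of mt-Tc, WT replicate 3 and miR-181a/b-1-/- replicate 1, and both genes lie close together on the reverse strand. mt-Tp, far from them on this strand, also had its lowest counts there, 575 and 467. mt-Tq, on the same strand, had 103 and 33, of which only the latter was its lowest. The cause was not tested. mt-Tt, mt-Tv (valine) and mt-Ti (isoleucine) had 7 to 27 counts per library. mt-Tt had the lowest p of all 18 genes (log2 fold change -0.47, standard error 0.32, edgeR unadjusted p = 0.156, adjusted p = 0.980 by Benjamini-Hochberg) and was named after its values were seen.

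Among the protein-coding genes, mt-Nd2, mt-Cytb, mt-Nd4, mt-Nd5, mt-Nd1 and mt-Co1 had the most counts, in that order over all libraries, and the genes at 0 in the copied stretch could not be ranked. mt-Nd2, a complex I subunit, had 471, 334 and 388 counts in WT and 330, 346 and 476 in miR-181a/b-1-/- libraries. mt-Cytb, the mitochondrial subunit of complex III, had 323, 248 and 314 in WT and 232, 226 and 328 in miR-181a/b-1-/- libraries. After TMM scaling, the miR-181a/b-1-/- values of both lay within those of WT, 1697 to 2345 CPM for mt-Nd2 and 1260 to 1608 for mt-Cytb. Of the other complex I genes, mt-Nd4 had 206, 173 and 175 counts in WT and 133, 165 and 264 in miR-181a/b-1-/- libraries. mt-Nd5 had 196, 128 and 142 in WT and 124, 125 and 188 in miR-181a/b-1-/- libraries. mt-Nd1 had 174, 129 and 146 in WT and 111, 154 and 179 in miR-181a/b-1-/- libraries. None of these separated the genotypes. mt-Co1, the catalytic subunit of complex IV, had 119, 75 and 102 counts in WT and 67, 91 and 104 in miR-181a/b-1-/- libraries. For these 6 genes, log2 fold changes lay between -0.09 and 0.07, with standard errors of 0.24 to 0.26, and that of mt-Nd3 was -0.32 (standard error 0.32), or -0.20 without WT replicate 2. Reads of the overlapping pairs mt-Nd4l and mt-Nd4, mt-Atp8 and mt-Atp6, and mt-Nd5 and mt-Nd6 (opposite strands) are uncertain in the shared bases.

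Levels were ordered per kb of gene and per 100000 gene counts, since the genes differ in length. The medians over the 6 libraries were 6449 for mt-Rnr2, 6180 for mt-Rnr1, 4926 for mt-Tp, 994 for mt-Tm and 520 for mt-Tq, so that a single tRNA gene came close to the rRNA genes per kb. The rRNA counts are those left by the authors' rRNA filter, so neither these levels nor the ratios below give the rRNA level before it. The protein-coding genes lay lower, from 162 (mt-Nd2) and 107 (mt-Cytb) to 59.4 (mt-Nd4), 34.3 (mt-Nd5) and 21.2 (mt-Nd3). Of neighbours in this order, the ranges over libraries did not overlap for mt-Tp and mt-Tm, for mt-Tm and mt-Tq, and for mt-Nd4 and mt-Nd5. All other neighbours overlapped. When the level was set per 1000 windows found in no nuclear transcript, mt-Nd4 moved up to 163, close to mt-Nd2 with 194 and above mt-Cytb with 118, and mt-Co1 moved from 26.4 to 76.6, above mt-Nd1 with 67.8. Of the 7 protein-coding genes tested, mt-Nd3 moved from the lowest level to the highest, 1232, which rests on only 6 such windows. mt-Tp, with 8685, then lay above mt-Rnr2 with 6761 and mt-Rnr1 with 6374. The order of the levels thus depended on the unit. mt-Rnr1 exceeded its abutting tRNA mt-Tv 40.2 to 107 times per kb, and mt-Rnr2 exceeded mt-Tl1 18.4 to 37.7 times. mt-Nd5 exceeded mt-Nd6 on the other strand 5.04 to 13.9 times.

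The mitochondrial genome took up 18.0%, 16.8% and 17.7% of the gene counts in WT and 17.3%, 18.1% and 15.5% in miR-181a/b-1-/- libraries. The means were 17.5% ± 0.585 and 17.0% ± 1.35 (SD, n = 3 each, exact two-sided permutation test, p = 0.7). The rRNA genes took 16.4% ± 0.560 and 15.9% ± 1.27 (exact p = 0.7, n = 3 each). The tRNA genes took 0.532% ± 0.122 in WT and 0.496% ± 0.0834 in miR-181a/b-1-/- libraries (exact p = 0.8, n = 3 each). For the protein-coding genes the shares were 0.569% ± 0.0979 and 0.563% ± 0.0488 (exact p = 1, n = 3 each). Each difference was smaller than the spread between the libraries of a genotype. In bulk libraries, fewer mitochondria per cell and less RNA per mitochondrion cannot be told apart.

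**Figure D5:**
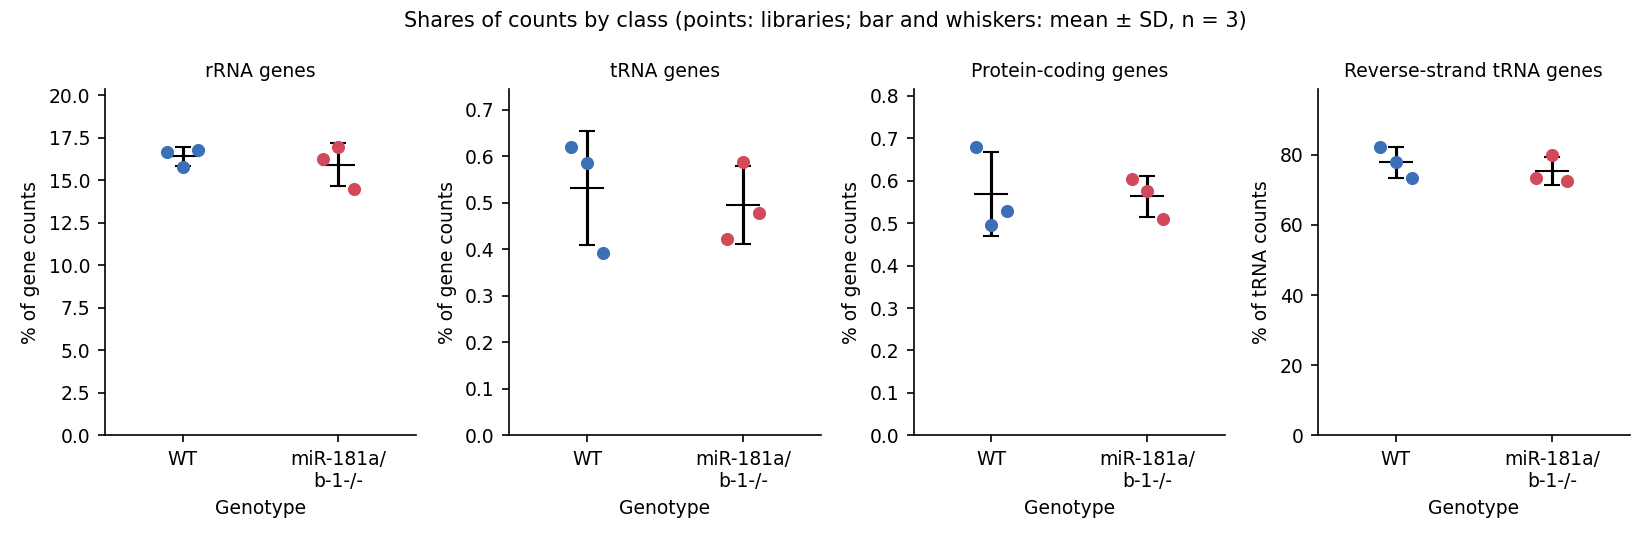
Shares of the gene counts on the rRNA, tRNA and protein-coding genes, and of the tRNA counts on reverse-strand tRNA genes, as 1 point per library with mean and SD (n = 3), all axes from 0. The genotypes overlap in all panels, and the largest spread relative to its mean is that of the tRNA genes in WT, from 0.392% to 0.620%.

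Within the mitochondrial counts, class and strand shares differed between the genotypes by less than the spread between libraries. The tRNA genes took 3.05% ± 0.720 of the mitochondrial counts in WT and 2.92% ± 0.417 in miR-181a/b-1-/- libraries (SD, n = 3 each, exact p = 0.7). The rRNA genes took 93.7% ± 1.03 and 93.8% ± 0.259 (exact p = 0.8, n = 3 each), and the protein-coding genes 3.24% ± 0.474 and 3.32% ± 0.161 (exact p = 0.8, n = 3 each). The 9 reverse-strand genes took 2.40% ± 0.668 and 2.22% ± 0.389 (exact p = 0.7, n = 3 each). Among tRNA counts alone, the reverse strand held 82.3%, 77.8% and 73.4% in WT libraries. In those of miR-181a/b-1-/- mice it held 73.4%, 79.8% and 72.5%, and the means differed by -2.61 percentage points (exact p = 0.5, n = 3 each). Without mt-Tp the reverse strand held the smaller part, 37.9%, 35.8% and 33.3% in WT and 22.5%, 32.8% and 36.8% in miR-181a/b-1-/- libraries, and the difference was -4.93 percentage points (exact p = 0.4, n = 3 each). This was more than the SD of WT (2.29) and less than that of the miR-181a/b-1-/- libraries (7.37), where replicate 1 was far below the others. Over these 9 shares, Benjamini-Hochberg adjusted values were 0.9 to 1. The 8 reverse tRNA genes summed to 5357 counts and the 14 forward ones to 1614 in all libraries, and mt-Tp made the greater part of the former.

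Nuclear genes that serve the mitochondrial genome were counted from lists chosen for their function. Of 84 nuclear subunits of the respiratory complexes and ATP synthase, 81 were in the files and 27 were tested, with 7 positive and 20 negative log2 fold changes and a median of -0.16, against 686 positive and 705 negative ones over all 1391 genes. By the edgeR test, 0 passed an adjusted p of 0.05 (0% of all genes), and 1 had an unadjusted p under 0.05, against 5.18% of all genes. The genotypes did not overlap for 1 subunit that was higher and 2 that were lower in miR-181a/b-1-/- libraries, against 8.05% of all genes. The subunit with an unadjusted p under 0.05 was Atp5b, the beta subunit of ATP synthase (log2 fold change -0.65, standard error 0.30, edgeR adjusted p = 0.897 by Benjamini-Hochberg), whose miR-181a/b-1-/- libraries all lay below those of WT. Cox4i1, of complex IV, and Uqcrh, of complex III, were at 0.09 and -0.06. For transcription and RNA processing in mitochondria, 55 of 58 listed genes were in the files, with 544 counts in all libraries, and 0 passed the filter. The most counts on that list were on Tfam (46), which packages and helps transcribe mitochondrial DNA, and then on Rexo2 (40), an exonuclease, and Hsd17b10 (33), part of the enzyme that cuts the 5′ ends of the tRNAs. All 22 mitochondrial aminoacyl-tRNA synthetase genes had counts, summing to 419 ± 85.2 CPM in WT and 699 ± 146 in miR-181a/b-1-/- libraries (SD, n = 3, exact two-sided permutation test, p = 0.1, the smallest possible). Of their 753 counts, 551 were on Lars2, which charges the leucine tRNAs mt-Tl1 and mt-Tl2 and was the only one tested (log2 fold change 0.88, standard error 0.27, edgeR unadjusted p = 0.00368, adjusted p = 0.418 by Benjamini-Hochberg). Iars2 and Gars followed with 27 and 25 counts, so that most of the sum was Lars2. The sum without Lars2 was not tested, and neither was whether reads of leftover rRNA fell on this gene. Beside Lars2, mt-Tl1 was at -0.39, and mt-Tl2 had 1 to 6 counts per library.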

How the data were processed

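The counts come from HTSeq, run by the authors on STAR alignments, and Bowtie 2 served as a filter against rRNA after Flexbar had clipped the adapters. The submitters' processing notes also name SAMtools, DESeq2 and GRCm38.p6. The annotation release, strand setting and overlap mode are not given in the sources used here, so reads of genes on opposite strands may not be told apart where they overlap. The deposited files hold raw counts per gene and library, without normalization. The authors' table of their miRNA comparison was not used here. The library kit adds a tail to the RNA and relies on template switching, and read lengths are not known, so whole tRNAs and fragments cannot be told apart.

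Of 54547 gene identifiers, 51464 matched GENCODE vM21 with version and 53620 without it. The 1391 genes with 10 or more counts in 3 or more of the 6 libraries were scaled by TMM and tested with edgeR 4.0.16 in R 4.3.3 (quasi-likelihood test, genotype alone, Benjamini-Hochberg adjustment over all of them). Records given to no gene were left out of library sizes and tests, except where all records were the denominator of a share as an alternative. Shares were compared by exact two-sided permutation tests in SciPy 1.17.1. The 95% Wilson intervals, and the 3 counts that a count of 0 allows, cover counting error only. Alternatives were other scalings, DESeq2 1.42.0, other filters and thresholds, leaving out each library or the most abundant gene, another denominator and a replicate block. Sequences were compared between transcripts of GENCODE vM21. Values per library are given for the rRNA genes and the 6 most counted genes of each other class, and for others where noted.

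Members, lists and tests were chosen with earlier results of these data known. Replicate pairs differed by more than counting noise (chi-square 2.07 to 4.20 times its degrees of freedom). The methods call them biological replicates, and the number of libraries, 3 against 3, limits precision.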

Additional observations from a re-analysis of the deposited data

Results flagged for a closer look

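Outside the gene counts, the records that aligned to no annotated gene made up 9.01%, 10.2% and 9.94% of all records in WT and 10.7%, 13.1% and 13.1% in miR-181a/b-1-/- libraries. The mean was 12.3% ± 1.36 in miR-181a/b-1-/- against 9.71% ± 0.626 in WT libraries (SD, n = 3 each), and the genotypes did not overlap (exact two-sided permutation test, p = 0.1, the smallest p that 3 against 3 allows). It is listed since these records are in no gene's counts and their share was above that in the controls.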

How the results depend on the processing

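No gene of the mitochondrial genome was called in either direction at an adjusted p under 0.05 in any alternative run (0 in each). An unadjusted p of 0.05 was applied to the main fit alone, where 0 were called. The smallest edgeR adjusted p of the genes tested over the alternatives was 0.583, for mt-Tq without miR-181a/b-1-/- replicate 3. Over all genes, 7 were called higher and 1 lower without a filter, 35 and 37 at an unadjusted p of 0.05, and 0 to 8 higher and 0 to 1 lower with single libraries left out (8, 2 and 3 higher without miR-181a/b-1-/- replicates 1, 2 and 3, and 1 lower without replicate 3). The log2 fold changes kept their sign in 125 of 125 values under alternatives other than leaving out a library, where mt-Tv could not be tested with 10 counts required in every library. With single libraries left out the sign changed in 19 of 108 values, with ranges of -0.0950 to 0.0353 for mt-Rnr2, -0.0707 to 0.19 for mt-Nd1, -0.22 to 0.0248 for mt-Ti, -0.79 to 0.21 for mt-Tq, -0.0588 to 0.17 for mt-Nd2, -0.29 to 0.38 for mt-Ta, -0.83 to 0.0883 for mt-Tc, -0.23 to 0.0708 for mt-Co1, -0.0435 to 0.16 for mt-Nd4, -0.13 to 0.18 for mt-Nd5 and -0.37 to 0.0195 for mt-Tp. The other genes kept their sign, with ranges of -0.0910 to -0.0270 for mt-Rnr1, -0.70 to -0.0758 for mt-Tv, -0.61 to -0.28 for mt-Tl1, 0.19 to 0.48 for mt-Tm, -0.44 to -0.20 for mt-Nd3, -0.17 to -0.0160 for mt-Cytb and -0.67 to -0.32 for mt-Tt. Scaling by nuclear genes alone gave a median of -0.07 over the mitochondrial genes tested. With single libraries left out this median ranged from -0.11 (without WT replicate 3) to 0.00176 (without WT replicate 1), so that its sign was not kept.

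The differences of the shares, in percentage points, changed sign with single libraries left out for all but the reverse-strand share of tRNA counts (-4.90 to -0.395). They ranged from -1.12 to 0.197 for all mitochondrial genes, -1.03 to 0.203 for rRNA, -0.107 to 0.00727 for tRNA and -0.0417 to 0.0501 for protein-coding genes of the gene counts, and, of the mitochondrial counts, from -0.432 to 0.589 for rRNA, -0.541 to 0.112 for tRNA, -0.0681 to 0.352 for protein-coding and -0.562 to 0.0482 for reverse-strand genes. The rRNA share of the mitochondrial counts, 0.0461 higher in miR-181a/b-1-/- libraries, was -0.0858 without mt-Rnr2 and -0.102 without mt-Tp, and the tRNA share was 0.0282 without mt-Tp, a setting chosen after seeing the data. The cause was not tested. With all records as the denominator, those given to no gene included, the mitochondrial genes took 4.11% ± 0.338 in WT and 3.73% ± 0.601 in miR-181a/b-1-/- libraries (SD, n = 3 each, difference -0.379, exact permutation p = 0.5), and the differences of the classes were -0.353 for rRNA, -0.0162 for tRNA and -0.00964 for protein-coding genes (exact p of 0.4 to 0.6).

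With the replicate number as a block (replicate block), 0 genes were called over all genes and 0 among the mitochondrial ones, and the mitochondrial share differed within numbers by -0.687, 1.30 and -2.22 percentage points (exact sign-flip permutation test over 3 pairs, p = 0.75), whose mean of -0.538 equals the unpaired difference by arithmetic. Same-numbered libraries had correlated deviations of 0.231, 0.0812 and 0.182, and each library correlated best with its own number, a hint from the data and not from the design, so the numbers were not taken as pairs. The counts of 7 to 34 per library on mt-Tt, mt-Tv, mt-Ti and mt-Ta limit what could be detected, and the interval of mt-Tc alone spanned -1.24 to 0.42.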
